A study of Mus musculus with 2 samples.

Results

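The BCL2 family decides at the outer mitochondrial membrane whether a cell lives or enters apoptosis, and 9 of its genes were followed here through the leukocytes of the mouse lung. The genes were the rows of the count matrix whose symbol is Bcl2, Bcl2l1, Bcl2l11, Bcl2l14, Bcl2a1b, Bcl2a1d, Mcl1, Bax or Bid, and all 9 were found among 32285 genes. The set holds both survival genes and genes that promote death. The cells were live CD45.2+ YFP+ lung cells of Zbtb46-cre x Rosa26-YFP mice, profiled by droplet single-cell RNA sequencing. In these mice all groups carry both alleles, and YFP stays on in any cell that once expressed Cre from Zbtb46, a gene for a regulator typical of conventional dendritic cells (DC). The labels call the cells dendritic cells, but clusters with the markers of neutrophils, monocytes and lymphocytes were also found. The groups were adult mice, 8 weeks old, and neonatal mice, 7 days old, with 2 independently prepared pools per age and at least 5 mice per pool, so n = 2 per age throughout. The study compared adult with neonatal lung cells, and the cell classes of a pool can be compared with each other as well.

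The family falls into 3 working groups. The survival proteins BCL2, BCL-XL (encoded by Bcl2l1), MCL1 and A1 (encoded by the Bcl2a1 copies) hold their opponents in check. The BH3-only proteins BIM (Bcl2l11) and BID bind the survival proteins or activate the effectors, and the effector BAX, with BAK, opens the mitochondrial membrane so that cytochrome c leaks out and caspases are activated. BCL-G, encoded by Bcl2l14, belongs to the family by sequence, and its part in apoptosis is unsettled. In leukocytes, neutrophils are known to depend on MCL1, lymphocytes on BCL2 and MCL1, and A1 is known as a gene induced by NF-kB in activated myeloid cells.

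The 4 pools gave 8993471 and 8172362 gene UMIs in adult pools 1 and 2, and 20346024 and 19549992 in neonatal pools 1 and 2. After filtering, 12740 cells remained, with median depths per pool between 3052 and 3721.5 UMIs per cell. Levels are in CPM, the usual scaling of the UMIs of a gene by the UMIs of all genes in a cell class and pool, and fewer expressing cells cannot be told apart from less RNA per cell in such a sum. Age was bound to the loading channel, and also to sex: Xist stood at 0.235 and 0.129 CPM in the adult pools and at 708 and 603 CPM in the neonatal pools, and the Y-linked Ddx3y at 69.7 and 76.6 CPM in the adult pools and at 0.523 and 11.8 CPM in the neonatal pools. Age, sex and channel cannot be told apart in any difference below. Cell classes are clusters named from marker genes and stand for "mature DC-like", "neutrophil-like" and so on. Clustering used neither the 9 genes nor 19 other BCL2 family genes. All 10 markers of mature DC, among them Ccr7, Fscn1 and Ccl22, were detected in mature DC of every pool, with a summed level of 11055 and 11428 CPM in the adult pools and 12602 and 11906 CPM in the neonatal pools. The tested classes held, in adult pools 1 and 2 and then neonatal pools 1 and 2, 113, 103, 525 and 521 mature DC, 311, 230, 767 and 709 type 1 classical DC (cDC1), 154, 130, 404 and 268 type 2 classical DC (cDC2), 580, 495, 398 and 566 neutrophils, 214, 200, 715 and 667 classical monocytes, 276, 295, 1128 and 1225 nonclassical monocytes and 51, 56, 84 and 120 T cells. NK cells numbered 259 and 282 in the adult pools but 10 and 13 in the neonatal pools, too few to compare ages. RNA released by neutrophils could supply at most 1.86% of the level of any of the 9 genes in another class, as bounded from S100a8 and S100a9.

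The genes lie on 6 chromosomes of the GRCm38 (mm10) build, in the GENCODE M21 annotation. Bcl2 lies at chr1:106538178-106714274 on the minus strand, Bcl2l1 at chr2:152780668-152831728 on the minus strand, Bcl2l11 at chr2:128126038-128162547 on the plus strand and Mcl1 at chr3:95658788-95663176 on the plus strand. Bcl2l14 lies at chr6:134396318-134438736 on the plus strand, Bid at chr6:120891930-120916853 on the minus strand and Bax at chr7:45461697-45466898 on the minus strand. Bid overlaps Bcl2l13 on the opposite strand, and whether the counting used strand is not given in the sources used here. On the same strand, Bid overlaps Gm44260, Bax overlaps Gm45808, Bcl2a1b overlaps Gm29094, and Bcl2 overlaps Mir3473f and Gm37053. Strand could not tell apart reads in those overlaps. Bcl2a1b, at chr9:89199209-89207827 on the plus strand, and Bcl2a1d, at chr9:88723285-88731914 on the minus strand, are copies of one gene together with Bcl2a1a, at chr9:88956900-88962419 on the plus strand, and the less similar Bcl2a1c. Their last 200 transcript bases, near which 3′ libraries sample, were nearly the same: 197 of 202 aligned positions were identical between Bcl2a1b and Bcl2a1d, 196 of 202 between Bcl2a1a and Bcl2a1b, and 199 of 200 between Bcl2a1a and Bcl2a1d. Reads that fit more than 1 copy could therefore be assigned uncertainly or not counted at all. The summed level of the 3 copies is given for the 6 classes in which at least 1 of them was called between ages. It does not recover reads that were not counted.

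The promoters of Bcl2a1b and Bcl2a1d are shown because these genes gave similar age differences in mature DC and in neutrophils. Each sequence runs from 250 bases before to 50 bases after the RefSeq start (GRCm38.p6), at chr9:89199023-89199322 on the plus strand for Bcl2a1b and at chr9:88731801-88732100 on the minus strand for Bcl2a1d. Capitals mark matches to GAGGAAGT, a form of the motif of PU.1, a transcription factor of myeloid cells and DC:
Bcl2a1b: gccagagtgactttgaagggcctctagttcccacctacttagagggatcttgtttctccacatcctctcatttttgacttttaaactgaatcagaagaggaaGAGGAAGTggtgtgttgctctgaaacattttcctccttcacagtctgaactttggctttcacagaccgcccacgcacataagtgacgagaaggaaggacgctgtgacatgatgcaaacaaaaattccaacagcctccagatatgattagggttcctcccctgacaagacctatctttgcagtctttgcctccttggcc
Bcl2a1d: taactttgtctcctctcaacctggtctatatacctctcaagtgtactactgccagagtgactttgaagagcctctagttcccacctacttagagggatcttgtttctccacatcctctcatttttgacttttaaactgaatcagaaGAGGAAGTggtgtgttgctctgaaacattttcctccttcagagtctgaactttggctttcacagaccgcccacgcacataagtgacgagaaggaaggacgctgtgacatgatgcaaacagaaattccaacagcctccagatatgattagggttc
The windows were identical at 247 of 256 aligned positions (96.5%), and those of Bcl2a1a and Bcl2a1b at 254 of 256. Each holds 1 match to GAGGAAGT, starting 148 bases before the start in Bcl2a1b and 104 bases before it in Bcl2a1d. On either strand, 3.20% of 32851 mouse promoter windows hold that motif, and among the 9 genes a match was also found in 1 of the 2 windows of Bcl2l14. The letters TGANTCA, a loose form of the AP-1 motif with any base at N, were found in 7.81% of all windows. They were found once in each of the Bcl2a1b and Bcl2a1d windows, as TGAATCA. The usual AP-1 motif has C or G at that base, so these matches are not AP-1 sites of the usual form. No match to either motif was found in the windows of Bcl2, Bcl2l1, Bcl2l11, Mcl1, Bax or Bid.

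Each gene had its own distribution over the classes. Mcl1, a short-lived survival protein's gene, was highest in neutrophils, with 3650 and 3547 CPM in adult pools 1 and 2 and 1910 and 2018 CPM in neonatal pools 1 and 2. Its next highest class in adult pools was classical monocytes at 838 and 919 CPM, which overlapped mature DC at 894 and 796 CPM, and its lowest classes were NK cells at 290 and 266 CPM and T cells at 284 and 240 CPM, which overlapped each other. Bcl2 was highest in T cells, at 525 and 444 CPM in the adult pools and 352 and 268 CPM in the neonatal pools, followed in adult pools by NK cells at 293 and 281 CPM and nonclassical monocytes at 266 and 252 CPM. In the other tested classes Bcl2 was at or below 30.7 CPM, and in mature DC and neutrophils it was at or below 6.98 CPM in every pool.

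Bcl2a1b and Bcl2a1d were highest in mature DC at both ages. Bcl2a1b stood there at 2716 and 2437 CPM in adult pools and 1610 and 1523 CPM in neonatal pools, and no pool of any other tested class exceeded 637 CPM. Neonatal alveolar macrophages, with 74 and 60 cells, had 607 and 670 CPM. Bcl2a1d stood at 1093 and 1021 CPM in adult and 666 and 645 CPM in neonatal mature DC, with cDC1 next at 349 and 320 CPM in adult and 332 and 343 CPM in neonatal pools. Below mature DC, Bcl2a1b in adult pools was ordered cDC2, cDC1 and nonclassical monocytes, and the last pair overlapped at 418 and 419 CPM in cDC1 and 360 and 444 CPM in nonclassical monocytes. Adult T cells at 14.4 and 9.06 CPM, NK cells at 4.03 and 11 CPM and neutrophils at 11.1 and 19.5 CPM held the least Bcl2a1d, and T cells overlapped both other classes. The 3 copies summed to 4449 and 4143 CPM in adult and 2706 and 2614 CPM in neonatal mature DC.

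Bcl2l14 was highest in mature DC at both ages. It reached 71.2 and 56.1 CPM there in adult pools and 389 and 339 CPM in neonatal pools, the next class was cDC1 with 6.72 and 5.70 CPM in adult and 15.5 and 11.8 CPM in neonatal pools, and no pool of any other tested class exceeded 6.54 CPM. After every cell was thinned to 1500 UMIs, 6.25% and 8.91% of adult and 34.7% and 33.7% of neonatal mature DC held a UMI of Bcl2l14, where the unthinned shares were 20.4% and 17.5% in adult and 54.5% and 49.9% in neonatal pools. In adult NK cells at the same thinned depth, 0 of 253 and 0 of 277 cells held a UMI, which allows up to 1.19% and 1.08% of cells with a UMI by counting error and sets no limit on cells that express the gene at a low level. Median depths were 2596 and 2713.5 UMIs in adult NK cells, and 6324 and 6284 UMIs in adult and 4022 and 4295 UMIs in neonatal mature DC.

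Among the death genes, Bcl2l11 (BIM) in adult pools was highest in neutrophils at 94.0 and 91.9 CPM, followed by NK cells at 79.2 and 69.8 CPM, and lowest in nonclassical monocytes at 8.45 and 7.89 CPM. In neonatal pools T cells led the tested classes at 75.2 and 96.5 CPM, while mature DC at 65.9 and 52.6 CPM overlapped neutrophils at 56.2 and 59.2 CPM. Bid was highest in neutrophils, at 59.6 and 88.4 CPM in adult and 35.3 and 46.9 CPM in neonatal pools, where it overlapped nonclassical monocytes at 37.1 and 34.7 CPM. In adult pools Bid was lowest in mature DC, at 6.98 and 2.95 CPM, which overlapped T cells at 9.63 and 4.53 CPM. Bax in adult pools was highest in mature DC at 317 and 344 CPM, classical monocytes, cDC2, nonclassical monocytes and cDC1 overlapped their neighbours between 201 and 232 CPM, and neutrophils were lowest at 41.4 and 34.5 CPM. Bcl2l1 was highest in neonatal mature DC at 57.4 and 60.9 CPM, while in adult pools NK cells, neutrophils, cDC1 and mature DC overlapped their neighbours between 11.2 and 30.6 CPM.

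**Figure D1:**
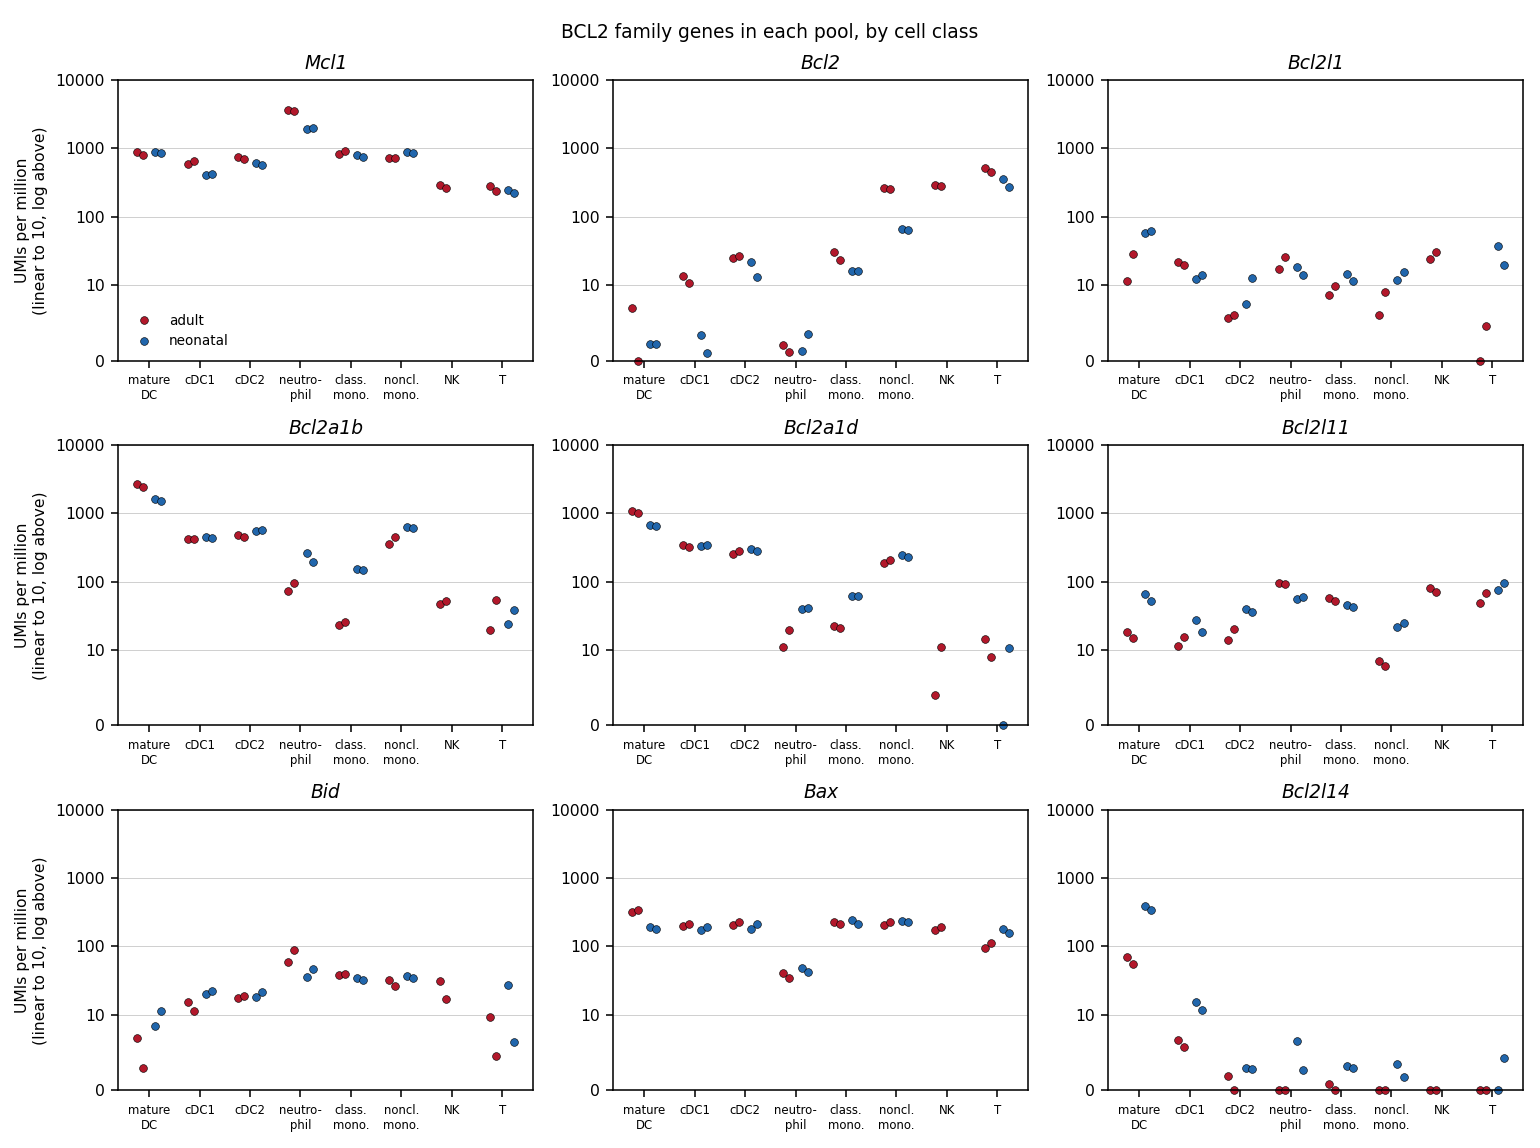
Levels of the 9 genes in each pool (CPM, linear up to 10 and logarithmic above), by cell class, with adult pools in red left of neonatal pools in blue; each point is 1 pool and pools with fewer than 20 cells of a class are not drawn. Bcl2a1b, Bcl2a1d and Bcl2l14 peak in mature DC, Mcl1 in neutrophils and Bcl2 in T cells.

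Mature DC are DC that have switched on Ccr7 and costimulatory genes and can migrate to lymph nodes. Set against cDC1 within the same pools, mature DC had more Bcl2l14, Bcl2a1b, Bcl2a1d, Bcl2l11 and Mcl1 and less Bid. The rises of Bcl2l1 and Bax differed with age. Bcl2l1 was 0.523 and 1.45 times its cDC1 level in adult and 4.78 and 4.38 times in neonatal pools. Bax was 1.58 and 1.63 times its cDC1 level in adult and 1.07 and 0.958 times in neonatal pools. edgeR's quasi-likelihood test with pool as a block called 8 of the 9 genes at an adjusted p of 0.05, against 57.0% of all 9831 genes tested, a background that is high in this comparison. Bcl2l14 was 10.6 and 9.84 times its cDC1 level in adult pools and 25.1 and 28.7 times in neonatal pools, a log2 fold of 4.50 ± 0.29 over all pools (± is the standard error of a log2 fold throughout; adjusted p = 1.5e-06). Bcl2a1b was 6.50 and 5.82 times its cDC1 level in adult and 3.63 and 3.49 times in neonatal pools (log2 fold 2.41 ± 0.18, adjusted p = 4.3e-06). The same direction was seen in all 4 pools for both. Bcl2a1d rose by a log2 fold of 1.49 ± 0.17 and Mcl1 by 0.94 ± 0.17, also in 4 of 4 pools. Bcl2l11 rose by 1.27 ± 0.24 in 3 of 4 pools, the adult pool 2 ratio being 0.961. Bid fell by 0.99 ± 0.23 on the log2 scale in 4 of 4 pools (adjusted p = 0.00511). Bcl2, at 0 to 6.98 CPM in mature DC and 1.04 to 13.4 CPM in cDC1, was not called (log2 fold -0.64 ± 0.60, adjusted p = 0.387). The calls of Bcl2l1 (1.57 ± 0.43, adjusted p = 0.0111) and Bax (0.53 ± 0.17, adjusted p = 0.0207) went with 3 of 4 pools each and rested on the pools used: Bcl2l1 had an adjusted p of 0.0933 without neonatal pool 1 and 0.128 without neonatal pool 2, and Bax 0.115 without adult pool 1 and 0.120 without adult pool 2.

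Against cDC2, all 9 genes were called, where 55.7% of 9237 genes tested were. Bcl2l14 was at 0 to 2.97 CPM in the cDC2 pools, so its log2 fold of 7.13 ± 0.31 has a small denominator, and the ratio was 131 and 120 in the neonatal pools. Bcl2l1 was 2.00 and 4.66 times its cDC2 level in adult and 7.73 and 4.87 times in neonatal pools (log2 fold 2.68 ± 0.29, adjusted p = 2.6e-05). Bcl2a1b rose by 2.25 ± 0.18, Bcl2a1d by 1.85 ± 0.17 and Mcl1 by 0.67 ± 0.13 on the log2 scale, each in 4 of 4 pools. Bcl2 fell by 2.58 ± 0.43 on the log2 scale (adjusted p = 5.3e-04): mature DC had 6.98 and 0 CPM in adult and 2.24 and 2.19 CPM in neonatal pools, against 25.1 and 26.1 CPM in adult and 21.6 and 13 CPM in neonatal cDC2. The cDC2 cluster also held cells with C1q genes, and its 8 C1q macrophage markers summed to 362 and 1728 CPM in adult and 559 and 1143 CPM in neonatal pools. Their part in these differences was not tested. The remaining calls were weaker, and Bcl2l11 and Bax were higher in 3 of 4 pools each. The ratio to cDC2 was 0.736 for Bcl2l11 in adult pool 2. For Bax it was 1.52 in both adult pools and 1.07 and 0.858 in neonatal pools 1 and 2. Bcl2l11 rose by 0.76 ± 0.23 (adjusted p = 0.0153, and 0.182 without neonatal pool 1 and 0.126 without neonatal pool 2), Bax by 0.55 ± 0.16 (0.0140, and 0.0561 without adult pool 2), and Bid fell by 0.92 ± 0.30 (0.0229, and 0.0513 without adult pool 2).

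**Figure D2:**
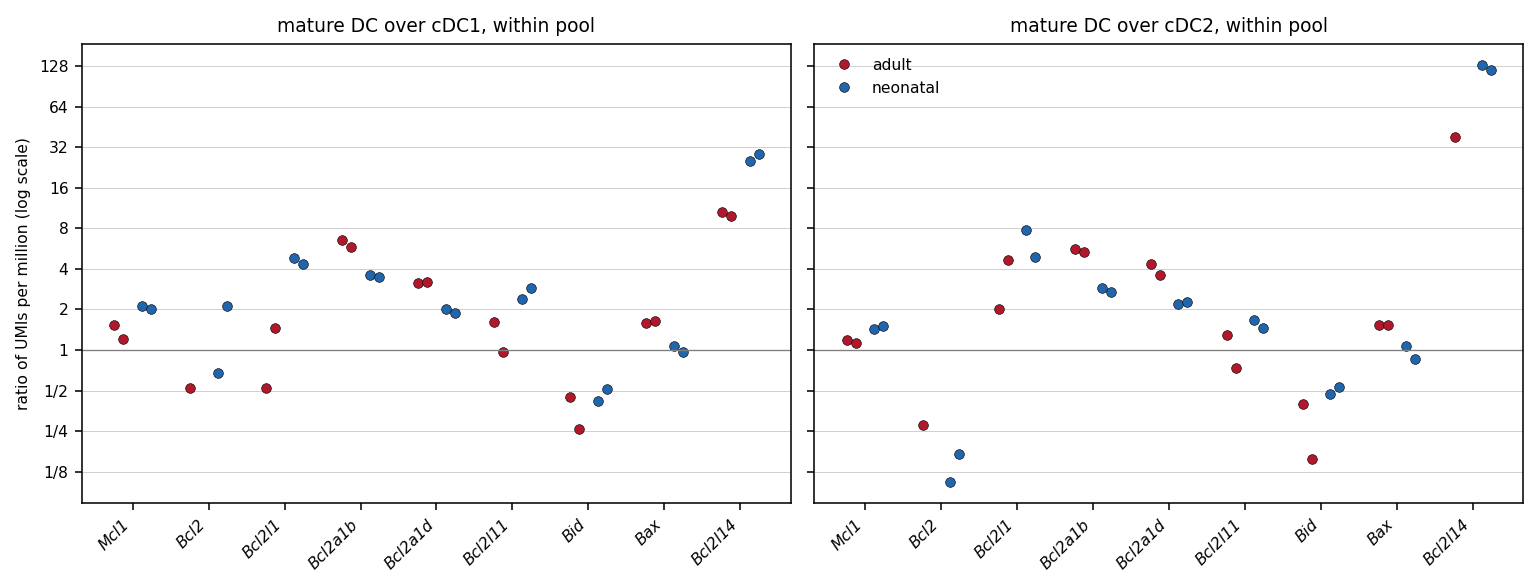
Ratio of the level in mature DC to that in cDC1 (left) and cDC2 (right) of the same pool, on a log scale, with adult pools in red left of neonatal pools in blue. Bcl2l14 lies furthest above 1, at 9.84 to 28.7 over cDC1, and Bid lies below 1 in every pool; ratios of 0 or with no UMI in the denominator are not drawn.

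Between ages, mature DC differed in most of these genes. Adult mature DC had less Bcl2l14, Bcl2l1 and Bcl2l11 and more Bcl2a1b, Bcl2a1d and Bax. edgeR's test called 6 of the 8 members that passed the low-count filter, against 30.3% of 7662 genes tested. Bcl2l14 fell to 71.2 and 56.1 CPM in adult pools, against 389 and 339 CPM in neonatal pools (log2 fold -2.40 ± 0.15, adjusted p = 6.3e-13). Bcl2l1 had 11.2 and 28.1 CPM in adult and 57.4 and 60.9 CPM in neonatal pools (log2 fold -1.50 ± 0.28, adjusted p = 1.3e-04). The 2 adult pools differed there, and the log2 fold was -0.96 without adult pool 1 and -2.30 without adult pool 2. Bcl2l11 had 18.2 and 14.8 CPM in adult and 65.9 and 52.6 CPM in neonatal pools (log2 fold -1.73 ± 0.28, adjusted p = 1.8e-05). Bcl2a1b rose to 2716 and 2437 CPM in adult pools, against 1610 and 1523 CPM in neonatal pools (log2 fold 0.82 ± 0.09, adjusted p = 1.7e-08). Bcl2a1d rose by 0.80 ± 0.09 and Bax by 0.94 ± 0.11 on the log2 scale, Bax with 317 and 344 CPM in adult and 190 and 182 CPM in neonatal pools. Mcl1, at 894 and 796 CPM in adult and 882 and 850 CPM in neonatal pools, was not called (log2 fold 0.07 ± 0.09, adjusted p = 0.613), nor was Bid (-0.87 ± 0.57, adjusted p = 0.263). Bcl2 did not pass the filter.

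The class was split into 2 clusters that the ages filled unequally. Cluster 10, led by Ccl22, Fabp5, Apol7c and Nr4a3, held 91.7% of adult and 22.4% of neonatal mature DC, and cluster 5, led by Gclc, Fscn1 and Il12b, held 8.33% of adult and 77.6% of neonatal mature DC. Bcl2l14 was itself among the leading genes of cluster 5, although it took no part in the clustering. In neonatal pools 1 and 2, Bcl2l14 stood at 481 and 454 CPM in cluster 5 and at 91.0 and 68.1 CPM in cluster 10. Bcl2a1b ran the other way, with 1250 and 1061 CPM in neonatal cluster 5 and 2775 and 2620 CPM in neonatal cluster 10. So did Bcl2a1d, with 506 and 405 CPM in neonatal cluster 5 and 1182 and 1215 CPM in neonatal cluster 10. Bax had 166 and 147 CPM in neonatal cluster 5 and 266 and 265 CPM in neonatal cluster 10. Bcl2l1 had 62.8 and 70.4 CPM in neonatal cluster 5 and 39.8 and 38.5 CPM in neonatal cluster 10. Bcl2l11 overlapped, with 62.8 and 57.9 CPM in neonatal cluster 5 and 75.9 and 39.9 CPM in neonatal cluster 10. Adult cluster 5 held 9 cells in each pool, too few for a level in CPM. They carried 17 and 18 UMIs of Bcl2l14, or 1.89 and 2.00 per cell, where neonatal cluster 5 cells carried 1.95 and 1.86. These counts are not scaled by depth and do not show like levels. Over all mature DC the median depth was 6324 and 6284 UMIs in adult and 4022 and 4295 UMIs in neonatal pools.

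Within cluster 10 alone, a comparison chosen after the clusters were seen, 2 of the 7 members tested were called, where 6.78% of 5543 genes tested were. Bcl2a1b had 2854 and 2522 CPM in adult and 2775 and 2620 CPM in neonatal cells, and the ages overlapped (log2 fold -0.00, adjusted p = 0.990). Bcl2a1d was at 1131 and 1049 CPM in adult and 1182 and 1215 CPM in neonatal cells and was not called either (log2 fold -0.14, adjusted p = 0.542), and neither were Bax (0.35, adjusted p = 0.165) and Bcl2l1 (-1.05, adjusted p = 0.122). Bcl2l11 fell by 1.64 on the log2 scale within the cluster, with 19.9 and 15.8 CPM in adult and 75.9 and 39.9 CPM in neonatal cells (adjusted p = 0.00410). Bcl2l14 fell by 0.90 on the log2 scale (adjusted p = 0.0484), with 52.0 and 31.7 CPM in adult and 91.0 and 68.1 CPM in neonatal cells. The cDC1 markers also moved with age in the class: the 10 markers summed to 402 and 326 CPM in adult and 1326 and 1096 CPM in neonatal mature DC, with 2 and 1 markers at 0 in the adult pools. Their part in the age differences was not tested.

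**Figure D3:**
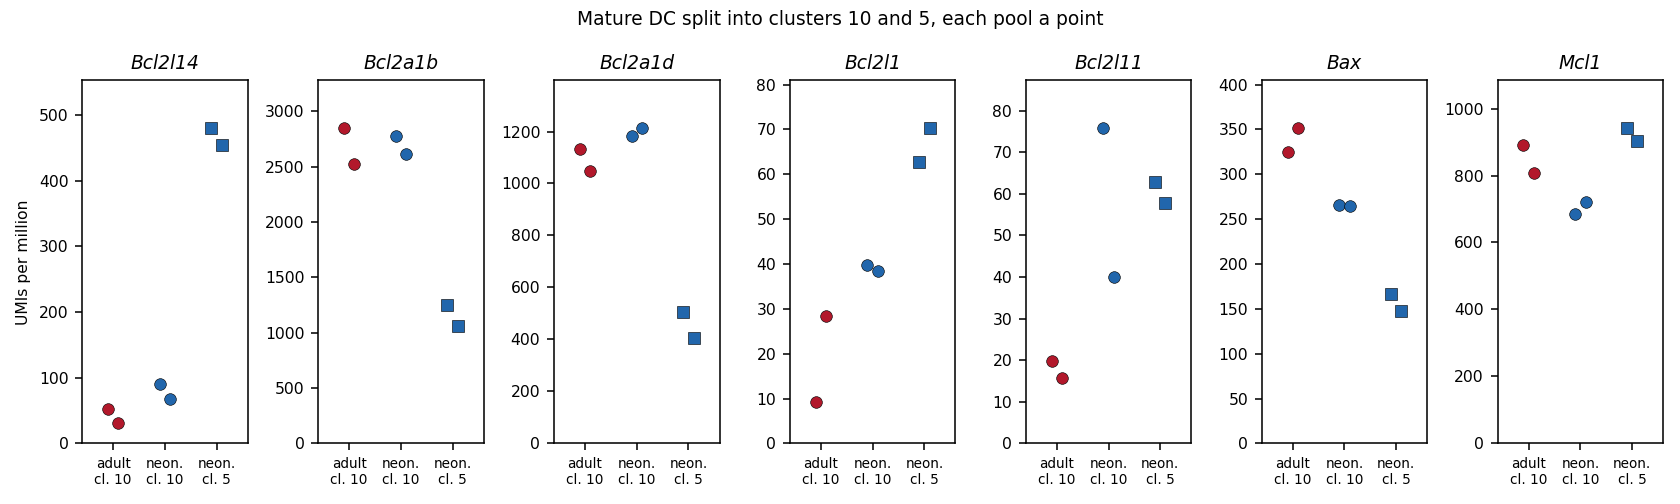
Levels (CPM, axes from 0) of 7 genes in adult cluster 10, neonatal cluster 10 and neonatal cluster 5 of mature DC; each point is 1 pool. In cluster 10 the ages overlap for Bcl2a1b, while Bcl2a1d is at 1131 and 1049 CPM in adult and 1182 and 1215 CPM in neonatal cells, and both genes are lower in neonatal cluster 5, while Bcl2l14 reaches 481 and 454 CPM in neonatal cluster 5.

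Among immature DC, adult cDC1 had more Bcl2, Mcl1, Bcl2l1 and Bax and less Bcl2l11, Bcl2l14 and Bid. The test called 7 of 9 genes, where 26.8% of 9816 genes tested were called. Bcl2 had 13.4 and 10.8 CPM in adult and 3.34 and 1.04 CPM in neonatal cDC1, from 51 UMIs in adult and 22 UMIs in neonatal pools, so the level was low at both ages (log2 fold 2.51 ± 0.38, adjusted p = 1.3e-06). The fold depended on the pools left in, at 3.56 without neonatal pool 1 and 1.92 without neonatal pool 2. Mcl1 rose to 585 and 658 CPM in adult cDC1, against 414 and 421 CPM in neonatal cDC1 (log2 fold 0.62 ± 0.05, adjusted p = 4.3e-13), and it was also called within cluster 1 alone (0.55, adjusted p = 5.1e-05). Bcl2l1 rose by 0.72 ± 0.21 and Bax by 0.22 ± 0.07, while Bcl2l14 fell by 1.07 ± 0.29, Bcl2l11 by 0.76 ± 0.23 and Bid by 0.58 ± 0.21 on the log2 scale, with adjusted p between 0.00398 and 0.0364. Each of these 5 calls was lost when at least 1 pool was left out: the adjusted p without neonatal pool 1 was 0.0694 for Bcl2l1, 0.239 for Bax, 0.0667 for Bcl2l14 and 0.242 for Bcl2l11, and without adult pool 1 it was 0.118 for Bcl2l1 and 0.192 for Bcl2l11. Without adult pool 2 it was 0.0585 for Bax and 0.287 for Bid, and without neonatal pool 2 it was 0.129 for Bid. Inside cluster 1, which held most neonatal cDC1, 4 of the 9 members were called, where 6.80% of 9183 genes tested were, and none of those 5 was among them: Bcl2l1 turned to a log2 fold of -1.09 (adjusted p = 0.339) and Bcl2l14 to 0.03 (adjusted p = 0.983). At resolution 2, a finer clustering, Bcl2l1 had 0.33 (adjusted p = 0.427), Bcl2l14 -0.76 (0.0675), Bax 0.12 (0.304) and Bid -0.36 (0.287). Markers of other cell types moved with age in cDC1: those of classical monocytes (10) summed to 819 and 799 CPM in adult and 471 and 449 CPM in neonatal pools, and those of mature DC (10) to 236 and 216 CPM in adult and 116 and 118 CPM in neonatal pools. The 10 cDC2 markers summed to 271 and 298 CPM in adult and 114 and 97.6 CPM in neonatal pools, and 6 erythroid markers to 3.36 and 3.42 CPM in adult and 598 and 121 CPM in neonatal pools. Their part in the cDC1 differences was not tested.

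Bcl2a1b and Bcl2a1d were not called between ages in cDC1 as a whole, at 418 and 419 CPM of Bcl2a1b in adult and 443 and 436 CPM in neonatal pools (log2 fold -0.02 ± 0.05, adjusted p = 0.831) and with a log2 fold of 0.04 ± 0.06 for Bcl2a1d (adjusted p = 0.647). The third copy, Bcl2a1a, fell to 279 and 281 CPM in adult pools, against 337 and 337 CPM in neonatal pools (-0.22 ± 0.06, adjusted p = 0.00432), and the 3 copies summed to 1046 and 1020 CPM in adult and 1112 and 1116 CPM in neonatal pools. Inside the class the ages differed more. Cluster 9, led by Epcam, Plet1 and Cldn1, held 77.1% of adult and 4.00% of neonatal cDC1, and cluster 1, led by Xcr1 and Clec9a, held 22.9% of adult and 96.0% of neonatal cDC1. Within cluster 1 Bcl2a1b fell to 191 and 121 CPM in adult cells, against 409 and 420 CPM in neonatal cells (log2 fold -1.29, adjusted p = 4.6e-09), and Bcl2a1d fell by 0.74 on the log2 scale (adjusted p = 6.9e-05). In cluster 9, Bcl2a1b stood at 484 and 502 CPM in adult and at 1167 and 848 CPM in neonatal cells, the neonatal values resting on 33 and 26 cells. In both clusters the adult values lay below the neonatal ones.

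In cDC2, 3 of the 8 members tested were called, where 16.9% of 8551 genes tested were. Mcl1 rose to 760 and 702 CPM in adult pools, against 618 and 568 CPM in neonatal pools (log2 fold 0.46 ± 0.07, adjusted p = 1.7e-06). Bcl2l11 fell to 14 and 20.1 CPM in adult pools, against 39.4 and 36.3 CPM in neonatal pools (log2 fold -1.01 ± 0.26, adjusted p = 0.00506, and 0.106 without adult pool 1 and 0.0672 without neonatal pool 1). Bax rose by 0.32 ± 0.11 (adjusted p = 0.0360, and 0.167 without adult pool 2 and 0.566 without neonatal pool 1). Bcl2, at 25.1 and 26.1 CPM in adult and 21.6 and 13 CPM in neonatal cDC2, was not called (adjusted p = 0.114). Bcl2a1b, at 483 and 455 CPM in adult and 555 and 561 CPM in neonatal pools, was not called either (log2 fold -0.09 ± 0.07, adjusted p = 0.492), but at resolution 2 it was (-0.39, adjusted p = 6.9e-04). Its copy Bcl2a1a fell to 138 and 146 CPM in adult pools, against 271 and 255 CPM in neonatal pools (-0.73 ± 0.11, adjusted p = 1.6e-06), and the 3 copies summed to 871 and 885 CPM in adult and 1130 and 1098 CPM in neonatal pools. Proliferation markers moved with age in this class, the 10 markers summing to 199 and 155 CPM in adult and 759 and 540 CPM in neonatal pools, and their part was not tested.

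Whether the age difference of mature DC was the same as that of immature DC was tested as an interaction. Against cDC1, 7 of 9 members were called, where 17.9% of 9831 genes were and the median gene stood at a log2 difference of -0.12. Bcl2l1 had the largest difference of the 9, falling by 1.50 in mature DC and rising by 0.72 in cDC1 on the log2 scale (difference -2.33 ± 0.36, adjusted p = 1.7e-06; -1.64 without adult pool 1 and -3.15 without adult pool 2). Bcl2a1b differed by 0.75 ± 0.09 (adjusted p = 6.2e-09), Bcl2a1d by 0.66 ± 0.10, Bax by 0.62 ± 0.13, Mcl1 by -0.64 ± 0.10, Bcl2l14 by -1.42 ± 0.37 and Bcl2l11 by -1.09 ± 0.39. The difference of Bcl2l11 was lost when any 1 pool was left out, with adjusted p between 0.0636 and 0.427, that of Bcl2l14 without adult pool 1 (0.0993) and that of Bax without neonatal pool 2 (0.0651). Against cDC2, 4 of 9 were called, where 15.0% of 9237 genes were: Bcl2a1b by 0.84 ± 0.12 (adjusted p = 1.4e-09), Bcl2a1d by 0.70 ± 0.14, Mcl1 by -0.47 ± 0.12 and Bax by 0.54 ± 0.17. There the calls of Mcl1 and Bax were lost without neonatal pool 1, with adjusted p of 0.113 and 0.0663, and without neonatal pool 2, with 0.102 and 0.398, and that of Bax also without adult pool 2 (0.0665). These interactions share the mature DC sums. The cluster shares of mature DC and of cDC1 differed between ages, and their part in the interactions was not tested.

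**Figure D4:**
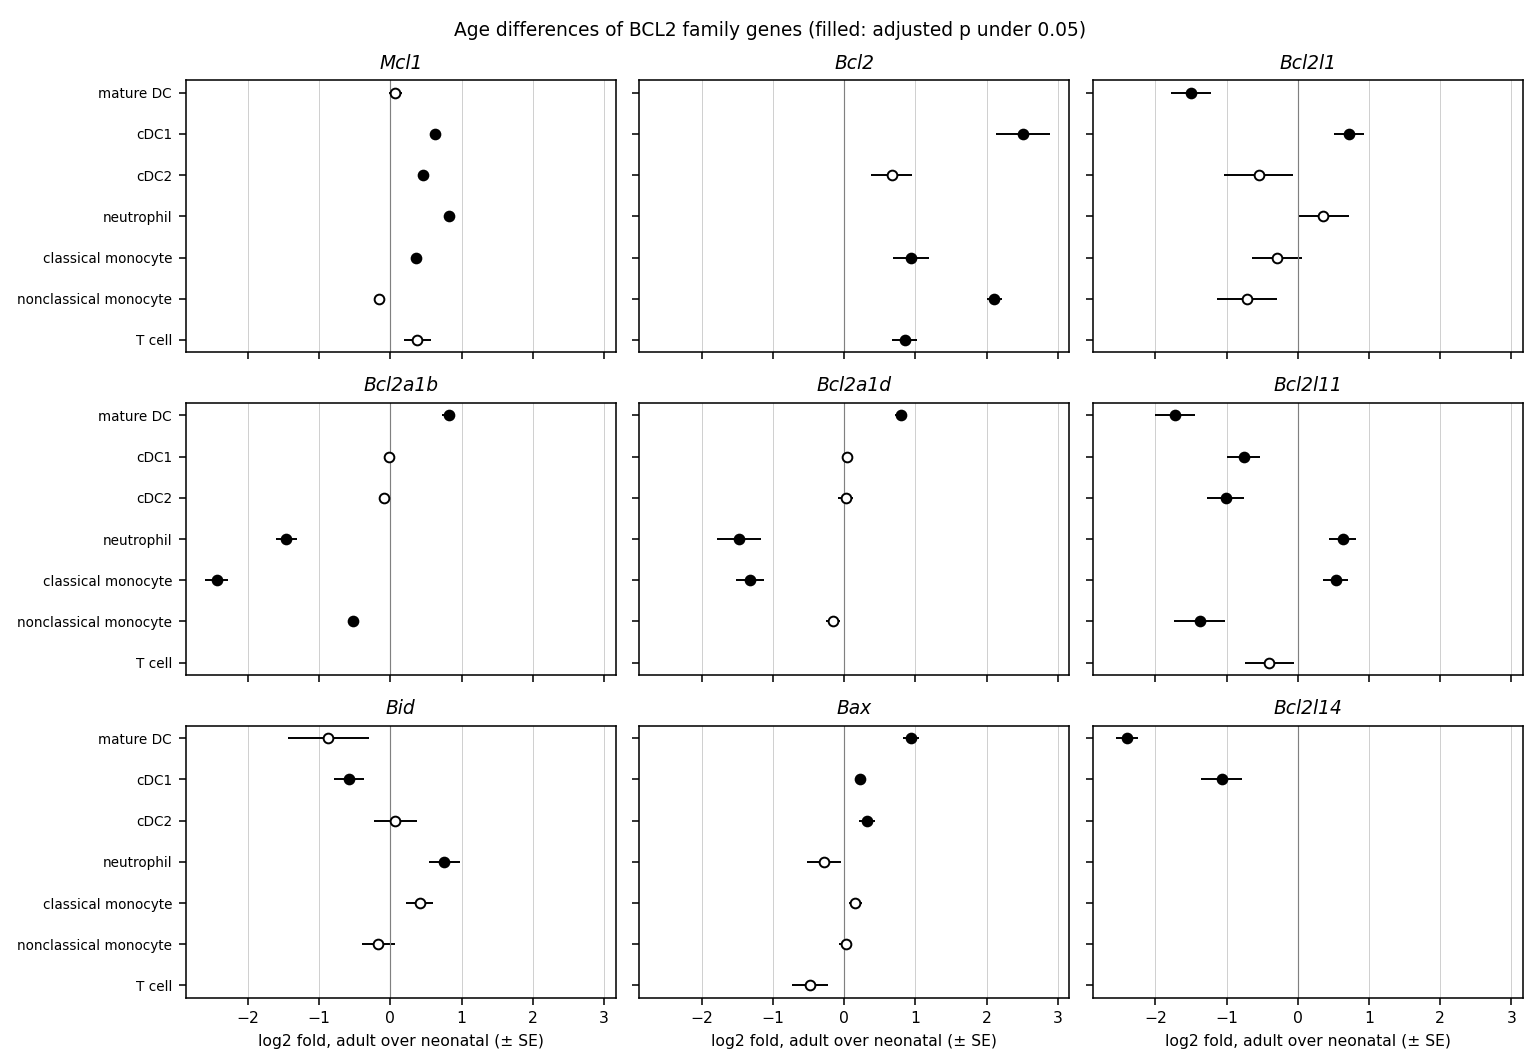
Log2 fold, adult over neonatal, with its standard error, for the 9 genes in the 7 classes tested; filled points have an adjusted p under 0.05 (edgeR), and genes that did not pass the low-count filter have no point. Bcl2 lies right of 0 in all 5 classes drawn, and Bcl2a1b lies right of 0 in mature DC and left of 0 in neutrophils and both monocyte classes.

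Neutrophils showed the highest Mcl1 CPM of any class, with a higher level in adult lungs. Their median depth was low, at 1648.5 and 1708 UMIs in adult and 1511 and 1583.5 UMIs in neonatal pools, and CPM does not give RNA per cell. Unscaled, adult neutrophils carried 6.23 and 6.24 Mcl1 UMIs per cell, and adult mature DC of cluster 10 carried 5.62 and 5.41. Adult neutrophils also had more Bcl2l11 and Bid and less Bcl2a1b and Bcl2a1d, and 5 of the 7 members tested were called, where 32.3% of 5775 genes tested were. Mcl1 rose to 3650 and 3547 CPM in adult pools, against 1910 and 2018 CPM in neonatal pools (log2 fold 0.83 ± 0.06, adjusted p = 2.7e-17). Bcl2a1b fell to 73.8 and 95.3 CPM in adult pools, against 259 and 195 CPM in neonatal pools (log2 fold -1.46 ± 0.15, adjusted p = 3.5e-11). Bcl2a1d had 11.1 and 19.5 CPM in adult and 39.2 and 41.6 CPM in neonatal pools (log2 fold -1.47 ± 0.31, adjusted p = 1.7e-04), and the 3 copies summed to 102 and 131 CPM in adult and 385 and 306 CPM in neonatal pools. Bcl2l11 had 94.0 and 91.9 CPM in adult and 56.2 and 59.2 CPM in neonatal pools (log2 fold 0.63 ± 0.19, adjusted p = 0.00742), and Bid 59.6 and 88.4 CPM in adult and 35.3 and 46.9 CPM in neonatal pools (0.76 ± 0.22, adjusted p = 0.00685, and 0.232 without adult pool 2 and 0.0595 without neonatal pool 1). Bax, at 41.4 and 34.5 CPM in adult and 48.4 and 42.4 CPM in neonatal pools, was not called (adjusted p = 0.409).

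The neonatal neutrophils fell into clusters of unlike content. Cluster 14, led by Camp, Ngp and Ltf, genes of secondary granules that neutrophils make before they are mature, held 89 and 132 neonatal cells and 0 adult cells, and cluster 6, led by Il1b and Cxcl2, held 307 and 431 neonatal cells, while all adult neutrophils lay in cluster 3. In neonatal pools 1 and 2, Mcl1 stood at 505 and 613 CPM in cluster 14 and at 2864 and 3044 CPM in cluster 6, and Bcl2a1b at 29.1 and 56.9 CPM in cluster 14 and at 415 and 293 CPM in cluster 6. Without cluster 14, a comparison chosen after the clusters were seen, the Mcl1 difference was smaller (log2 fold 0.39, adjusted p = 6.8e-09), those of Bcl2a1b (-1.96, adjusted p = 3.8e-39) and Bcl2a1d (-2.03, adjusted p = 8.4e-09) were larger, and Bcl2l11 (0.24, adjusted p = 0.444) and Bid (0.59, adjusted p = 0.0583) were no longer called.

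**Figure D5:**
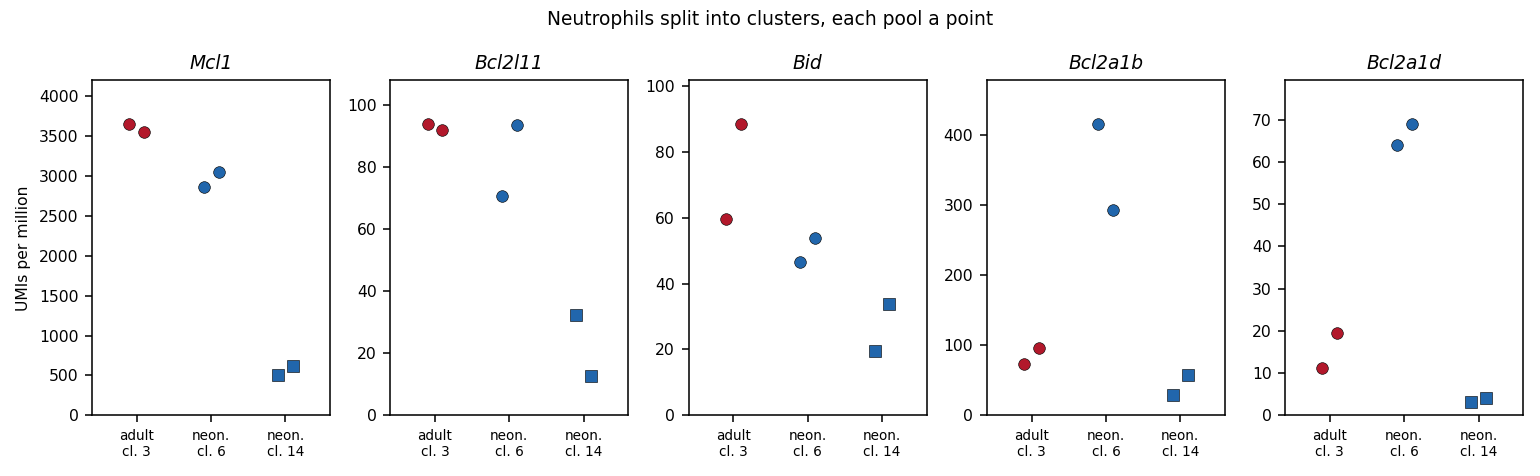
Levels (CPM, axes from 0) of 5 genes in adult cluster 3 and neonatal clusters 6 and 14 of the neutrophils; each point is 1 pool. Mcl1 is at 505 and 613 CPM in cluster 14, against 2864 and 3044 CPM in cluster 6 and 3650 and 3547 CPM in adult cells.

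In the nonclassical monocytes, which patrol the vessel wall, the clearest change was in Bcl2. It rose to 266 and 252 CPM in adult pools, against 66.4 and 64.6 CPM in neonatal pools (log2 fold 2.11 ± 0.11, adjusted p = 3.3e-23). Bcl2l11, whose product BIM is bound by BCL2, fell to 8.45 and 7.89 CPM in adult pools, against 21.9 and 24.4 CPM in neonatal pools (log2 fold -1.38 ± 0.36, adjusted p = 0.00311, and 0.0542 without adult pool 2). Bcl2a1b fell to 360 and 444 CPM in adult pools, against 637 and 618 CPM in neonatal pools (log2 fold -0.52 ± 0.08, adjusted p = 2.4e-07), and the 3 copies summed to 673 and 781 CPM in adult and 1177 and 1115 CPM in neonatal pools. These were 3 of 8 members tested, where 19.2% of 8628 genes tested were called. Mcl1 had 723 and 722 CPM in adult and 889 and 867 CPM in neonatal pools and missed the threshold (log2 fold -0.16 ± 0.06, adjusted p = 0.0673). The ages lay in different clusters, with 98.6% of adult cells in cluster 7 and 98.3% of neonatal cells in cluster 0. C1q macrophage markers moved with age as well, the 8 markers summing to 5332 and 6319 CPM in adult and 1310 and 1471 CPM in neonatal pools, with 4 and 2 at 0 in the adult and 1 and 1 at 0 in the neonatal pools, and their part was not tested.

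In classical monocytes, 5 of 8 members were called, where 19.0% of 8635 genes tested were, but the larger ones depended on the class border. Bcl2a1b had 22.8 and 25.5 CPM in adult and 152 and 146 CPM in neonatal pools (log2 fold -2.44 ± 0.16, adjusted p = 1.4e-22), and Bcl2a1d 22.1 and 20.6 CPM in adult and 60.8 and 60.8 CPM in neonatal pools (-1.32 ± 0.20, adjusted p = 1.2e-07). The 3 copies summed to 52.8 and 54.3 CPM in adult and 287 and 273 CPM in neonatal pools. When clustering was finer (resolution 2), 702 of the 1382 neonatal cells of this class and 25 of the 414 adult cells were named nonclassical, Bcl2a1b had a log2 fold of -0.54 (adjusted p = 0.170) and Bcl2a1d one of 0.23 (adjusted p = 0.730). Mcl1 rose to 838 and 919 CPM in adult pools, against 802 and 757 CPM in neonatal pools (log2 fold 0.36 ± 0.05, adjusted p = 6.1e-08). The log2 folds also carry the TMM scaling of the test, so they can differ from the ratio of CPM values. The ages lay in different clusters, with 87.2% of adult cells in cluster 11 and 98.5% of neonatal cells in cluster 2. Within cluster 2, Mcl1 ran the other way, at 705 and 731 CPM in 25 and 28 adult cells and 798 and 756 CPM in neonatal cells. That difference was not tested. Adult Bcl2 was uneven over the clusters, at 91.3 and 72.3 CPM in the 25 and 28 cells of cluster 2. It was at 24.4 and 17.4 CPM in the 189 and 172 adult cells of cluster 11. The part of cluster 2 in the age difference of Bcl2 over the whole class, given next, was not tested. Bcl2 had 30.7 and 23.0 CPM in adult and 15.8 and 16.1 CPM in neonatal pools (0.94 ± 0.25, adjusted p = 0.00253, and 0.153 without adult pool 1). Bcl2l11 rose by 0.53 ± 0.17 (adjusted p = 0.0159), a call lost without adult pool 1 (0.205), neonatal pool 1 (0.0568) or neonatal pool 2 (0.129). Markers of other types moved with age in this class, the 10 neutrophil markers summing to 191 and 214 CPM in adult and 924 and 1083 CPM in neonatal pools and the 8 C1q macrophage markers to 4218 and 3180 CPM in adult and 2124 and 2404 CPM in neonatal pools. Their part in these differences was not tested.

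In T cells 4 members passed the low-count filter and 1 was called, where 6.53% of 3706 genes tested were. Bcl2, which carries the survival signal of the interleukin 7 receptor in T cells, had 525 and 444 CPM in adult and 352 and 268 CPM in neonatal pools (log2 fold 0.85 ± 0.18, adjusted p = 0.00392, and 0.0673 without neonatal pool 2). NK markers moved with age in this class: the 8 markers summed to 1267 and 825 CPM in adult and 2383 and 2965 CPM in neonatal pools. The 10 proliferation markers summed to 24.1 and 113 CPM in adult and 653 and 1661 CPM in neonatal T cells, and their part was not tested. At resolution 2, 111 of 204 neonatal and 21 of 107 adult cells of the class were named cycling NK cells, and Bcl2 among the remaining cells had a log2 fold of 0.65 (adjusted p = 0.0790). Without cells that held a UMI of Ncr1, Klrb1c, Gzma or Eomes but none of Cd3d, Cd3e or Cd3g, it was 0.77 (adjusted p = 0.0179). Cells with both an NK marker and a Cd3 UMI stayed in that set. Mcl1 (0.38 ± 0.19), Bcl2l11 (-0.40 ± 0.34) and Bax (-0.48 ± 0.25) were not called. In NK cells, adult pools gave 293 and 281 CPM of Bcl2, 290 and 266 CPM of Mcl1 and 79.2 and 69.8 CPM of Bcl2l11.

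The rest of the apoptosis machinery was read from 6 further lists. Over all genes tested, 29.1% were called higher and 27.9% lower in mature DC than in cDC1, and 27.5% higher and 28.2% lower than in cDC2, so the counts of several lists below lie near those shares. In mature DC against cDC1, 6 of the 14 other BCL2 family genes tested were higher and 3 lower, with a median log2 fold of 0.31, where the median of all genes was -0.01 and that of the 9 members 1.27. The BH3-only gene Pmaip1 (NOXA, which binds MCL1) was among the higher, at 330 and 340 CPM in adult and 249 and 239 CPM in neonatal mature DC, against 125 and 125 CPM in adult and 70.5 and 68.6 CPM in neonatal cDC1 (log2 fold 1.81 ± 0.15, adjusted p = 8.1e-06). Of 8 inhibitors of apoptosis tested, 4 were higher and 3 lower. Birc2 (cIAP1) stood at 529 and 544 CPM in adult and 380 and 387 CPM in neonatal mature DC, against 30.7 and 42.8 CPM in adult and 23.8 and 23.8 CPM in neonatal cDC1 (4.14 ± 0.16, adjusted p = 1.0e-07). Cflar (c-FLIP, which blocks caspase 8) rose by 3.50 ± 0.29. Of 10 death receptor genes tested, 6 were higher and 2 lower, led by Fas, at 103 and 100 CPM in adult and 143 and 146 CPM in neonatal mature DC, against 3.36 and 3.99 CPM in adult and 2.36 and 3.73 CPM in neonatal cDC1 (5.47 ± 0.24, adjusted p = 2.0e-07). Of 16 caspase and apoptosome genes, 6 were higher and 4 lower, near the 57.0% called of all genes, Casp6 being among the lower (-3.07 ± 0.31). Of 9 p53 and stress genes, 6 were higher and 1 lower, with Mdm2 at 1.73 ± 0.21. Of 16 survival cytokine receptor genes, 11 were higher and 2 lower, with Il15ra at 4.96 ± 0.23 and Kit at -2.51 ± 0.19. Against cDC2, the counts of higher and lower genes were 4 and 2 of 14 other family genes, 4 and 3 of 8 inhibitors, 5 and 1 of 10 death receptor genes, 5 and 5 of 15 caspase genes, 4 and 2 of 10 p53 and stress genes and 11 and 3 of 16 cytokine receptor genes.

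Between ages in mature DC, 15.6% of all genes tested were higher in adult pools and 14.7% lower. Of 11 other family genes tested, 5 were higher and 0 lower (0 also at an unadjusted p of 0.05), with a median log2 fold of 0.56 beside 0.00 for all genes. They included Bcl2a1a, at 640 and 685 CPM in adult and 431 and 446 CPM in neonatal pools (log2 fold 0.70 ± 0.10, adjusted p = 1.6e-06), and Pmaip1, at 330 and 340 CPM in adult and 249 and 239 CPM in neonatal pools (0.56 ± 0.11, adjusted p = 1.7e-04). Of 7 inhibitors of apoptosis, Cflar fell by 0.83 ± 0.12, Birc6 by 0.79 ± 0.15 and Birc3 by 0.40 ± 0.12, while Birc2 rose by 0.59 ± 0.10 on the log2 scale. Of 14 survival cytokine receptor genes, 3 were higher and 5 lower. Il7r was higher, at 314 and 264 CPM in adult and 114 and 122 CPM in neonatal pools (1.40 ± 0.12, adjusted p = 4.7e-10), and Il4ra lower, at 102 and 82.7 CPM in adult and 321 and 287 CPM in neonatal pools (-1.61 ± 0.14, adjusted p = 5.5e-10). Of 12 caspase and apoptosome genes 2 were higher and 3 lower, of 9 death receptor genes 0 and 2, and of 8 p53 and stress genes 3 and 1, with Phlda3 at 2.75 ± 0.43 and Mdm2 at -0.91 ± 0.19.

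In cDC1, where 15.0% of all genes tested were higher in adult pools and 11.8% lower, the other family genes gave 2 higher and 4 lower of 14, the higher being the BH3-only genes Bbc3 (PUMA; 1.39 ± 0.18) and Pmaip1 (0.90 ± 0.09), and in cDC2 Pmaip1 rose to 171 and 195 CPM in adult pools, against 45.7 and 54.9 CPM in neonatal pools (2.04 ± 0.14, adjusted p = 1.8e-15). Casp6, an executioner caspase gene, fell to 14.7 and 14.3 CPM in adult cDC1, against 69.0 and 64.4 CPM in neonatal cDC1 (-2.15 ± 0.16, adjusted p = 8.1e-15), and fell also in cDC2 (-1.32 ± 0.21). In neutrophils, Bcl2a1a fell as the other copies did (-2.24 ± 0.26) and Pmaip1 rose (1.19 ± 0.20), and of 8 survival cytokine receptor genes 4 were higher in adult pools and 0 lower, where 15.9% and 16.4% of all genes were. The G-CSF receptor gene Csf3r stood at 2797 and 2867 CPM in adult and 1147 and 1097 CPM in neonatal neutrophils (1.29 ± 0.06, adjusted p = 1.0e-23). In nonclassical monocytes the other family genes gave 0 higher (1 at an unadjusted p of 0.05) and 4 lower of 12, where 9.63% and 9.61% of all genes were, with Bcl2a1a at 127 and 133 CPM in adult and 297 and 265 CPM in neonatal pools (-0.99 ± 0.10, adjusted p = 2.5e-11) and Pmaip1 at -0.78 ± 0.11, and Csf2rb, a receptor chain for GM-CSF, fell by 1.22 ± 0.12 on the log2 scale. In classical monocytes the other family genes gave 0 higher and 4 lower of 13, where 11.3% and 7.74% of all genes were, among them Bnip3l (-0.48 ± 0.09) and Bak1 (-0.46 ± 0.14). In T cells Il7r had 684 and 775 CPM in adult and 397 and 298 CPM in neonatal pools (1.28 ± 0.16, adjusted p = 1.1e-05).

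Patterns over the cell classes were compared by the Pearson correlation of log2(CPM + 1) over 30 sums of a class and pool, among 7997 genes. The sums of 1 pool share its mice, those of 1 age share a loading channel, and the values are a description. The genes most like Mcl1 were Pim1 (r = 0.95), a kinase gene induced by cytokines, Zfp36 (0.95) and Litaf (0.94). Those most like Bcl2l14 were Arhgap28 (0.94), Zmynd15 (0.94) and Stap2 (0.93). Bcl2a1b went with Bcl2a1a (0.91), Gm2396 (0.91) and Jup (0.89), and Bcl2a1d with Sbf2 (0.93), Bcl2a1a (0.92) and Cst3 (0.90). Bax was nearest to Snd1 (0.95), Ptcd2 (0.93) and Fkbp1a (0.92), Bid to Myd88 (0.91), Xpr1 (0.90) and Tmem164 (0.89), and Bcl2 to Bod1l (0.91), Dennd4c (0.89) and Ddx24 (0.88). The likeness was weakest for Bcl2l1, with Chka (0.85), Mpp5 (0.80) and Clip2 (0.79), and for Bcl2l11, with Slc9a3r1 (0.84), Slc16a6 (0.82) and Arid5a (0.80).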

How the data were processed

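The deposited values are raw UMI counts of genes in cell barcodes, in 1 joint matrix, per the file headers. The tools listed are Cell Ranger 6.1.2 and Seurat 4.2.0, and the build is mm10, per the submitters' processing notes. Per the labels' design text, the suffix of a barcode gives its pool. The pools of an age were marked with a hashtag each and loaded together, and 14 barcodes were shared between ages and 0 within an age. The spread between the pools of an age therefore holds no variation between loadings. Of 14710 barcodes, 12740 were kept, after removing those under 500 genes, under 1000 UMIs or over 10% mitochondrial UMIs, Scrublet doublets (21 and 14 in adult, 101 and 87 in neonatal pools), and those in which the other pool's hashtag passed 20%. Leiden clustering at resolution 1 on 2963 genes, 30 principal components and 15 neighbours (scanpy 1.11.5, leidenalg 0.10.2, Python 3.11.15) gave 22 clusters, named from markers. For each class, the UMI counts of the cells of a pool were added up and tested with edgeR 4.0.16 under R 4.3.3 (filterByExpr, TMM, robust glmQLFit, glmQLFTest; Benjamini-Hochberg over all genes tested; called under 0.05), where every pool held 20 cells or more. The scripts were tested on simulated data. DESeq2 1.42.0 and other alternatives are given at the end. Genes named besides the members are up to 4 called genes of smallest p per list, of which a part is printed, and the 3 most similar in pattern per member. The members and lists were chosen with earlier results of these data known. Sequences and their coordinates are from RefSeq on GRCm38.p6, and all 9 members matched. Same-numbered pools did not deviate together (r between -0.45 and 0.11 over genes), so pool numbers do not pair the pools.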

Additional observations from a re-analysis of the deposited data

Results flagged for a closer look

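In the test of the difference itself (edgeR interaction with pool as a block, adjusted over all genes), the age difference, adult over neonatal, was not the same in mature DC as in immature DC for several members. Set against cDC1, the log2 difference of the age differences was -2.33 for Bcl2l1, -1.09 for Bcl2l11, -1.42 for Bcl2l14 and -0.64 for Mcl1, and it was 0.75 for Bcl2a1b, 0.66 for Bcl2a1d and 0.62 for Bax. Set against cDC2, it was 0.84 for Bcl2a1b, 0.70 for Bcl2a1d, 0.54 for Bax and -0.47 for Mcl1. The share of each mature DC cluster differed between ages as well, with cluster 10 at 91.7% of adult and 22.4% of neonatal mature DC. So did that of the cDC1 clusters, with cluster 9 at 77.1% of adult and 4.00% of neonatal cDC1. Within cDC1 cluster 1, the age difference of Bcl2l1 had the opposite sign to that of the whole class and was not called. The part of the cluster shares in these differences was not tested by an interaction.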

How the results depend on the processing

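Of the 58 member results past the threshold, 29 kept their direction and their side of the threshold under every alternative run, and 39 did so when DESeq2 and leaving out a pool are set aside. Over 627 such values, 539 were the same, 82 missed the threshold and 6 turned sign. The replicate block left every count of members called as it was (7 for cDC1, 3 for cDC2, 6 for mature DC, 5 for neutrophils and classical monocytes, 3 for nonclassical monocytes, 1 for T cells), and with crossed pool numbers, tried after the neutrophil pools deviated against each other, 1899 neutrophil genes were called, against 1892 with the block and 1863 without.

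DESeq2, leaving out genes to which it gave no adjusted p, called 2 members in cDC1, 1 in cDC2, 3 in neutrophils, 3 in classical monocytes and 2 in the interaction with cDC2, and of all genes 1226 in cDC1 (2628 in edgeR), 523 in cDC2 (1443), 1014 in mature DC (2322), 818 in neutrophils (1863), 670 in classical monocytes (1641), 688 in nonclassical monocytes (1660), 129 in T cells (242), 606 in the interaction with cDC1 (1761) and 246 in that with cDC2 (1382). Resolution 2 gave 4 members in cDC1, 3 in classical monocytes and 0 in T cells, with 108 T cell genes and 871 genes in the interaction with cDC2. In cDC1 the members called at resolution 2 included Bcl2a1b, Bcl2a1d or both, which were not called at resolution 1. Keeping predicted doublets gave 3 members in classical monocytes and 0 in T cells, with 102 T cell genes. Within 1 cluster, 4 members and 624 genes were called in cDC1, 2 and 376 in mature DC, and, without cluster 14, 3 and 1167 in neutrophils. These cell choices were made after the clusters were seen, and they hold fewer cells. In T cells, 0 members at an adjusted threshold in edgeR stand beside an adjusted p of 0.0790 (resolution 2) and 0.0802 (doublets kept) for Bcl2.

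Leaving out 1 pool at a time lowered the number of members called in cDC1 each time. In cDC2, classical monocytes, T cells and the interaction with cDC2, it lowered that number or left it unchanged. Of all genes it gave 817 to 1351 in cDC2, 1391 to 1947 in mature DC, 159 to 290 in T cells, 1017 to 1355 in the interaction with cDC1 and 579 to 1125 in that with cDC2. A lone pool was then assumed to vary like the others.

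Signs turned mostly for values near 0 that were not called, and the cause was not tested. The 6 called values that turned sign were not near 0 in the main fit, and they turned within 1 cluster, at resolution 2 or with doublets kept. Their main log2 folds were 0.72 (Bcl2l1) and -1.07 (Bcl2l14) in cDC1 and 0.82 (Bcl2a1b) and 0.80 (Bcl2a1d) in mature DC. In classical monocytes that of Bcl2a1d was -1.32. In cDC1, within cluster 1, Bcl2l1 was -1.09 and Bcl2l14 0.03, and Bcl2a1d was -0.74 there, -0.17 at resolution 2 and -0.03 (without adult pool 1) to 0.11 when leaving out a pool. In cDC2, Bcl2a1d was -0.02 with no low-count filter, -0.09 at resolution 2, -0.03 with doublets kept, -0.01 with a stricter cell filter, -0.08 to 0.13 when leaving out a pool (below 0 without adult pool 2 or neonatal pool 2, -0.05), and Bid was -0.18 at resolution 2 and -0.08 (without neonatal pool 1) to 0.16. In mature DC, Bcl2a1b was -0.00 and Bcl2a1d -0.14 within cluster 10, and Mcl1 was -0.02 with no filter and -0.00 (without adult pool 1) to 0.15 when leaving out a pool. In classical monocytes Bcl2a1d was 0.23 at resolution 2 and 0.04 with doublets kept. In nonclassical monocytes it was 0.03 and 0.06 under the same settings, and Bax was -0.02 with no filter, -0.06 at resolution 2, -0.08 with doublets kept, and -0.06 (without adult pool 2) to 0.09 when leaving out a pool (-0.02 without neonatal pool 2). Mcl1 in T cells was -0.10 with doublets kept. In the interaction with cDC2, Bcl2 was 0.10 with stricter cells and -5.91 to 0.93 (without adult pool 2; 0.24 without neonatal pool 2) when leaving out a pool, and Bcl2l14 was -1.90 to 2.59 (without adult pool 1). The stricter cell filter left too few neutrophils and was not run for them. Low levels (Bcl2 in DC, Bcl2l14 outside mature DC and cDC1) and 2 pools per age limit the precision.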
